A study of Mus musculus with 2 samples.

Results

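The 10 genes described here encode the MHC class I antigen presentation machinery: 5 class I heavy chains (H2-K1, H2-D1, H2-Q4, H2-Q7 and H2-T23), the shared light chain B2m, 2 components of peptide loading (Tap1 and Tapbp) and 2 catalytic subunits of the immunoproteasome (Psmb8 and Psmb9). They are 10 of the 32285 genes in the deposited matrices, and all 10 were detected in both libraries. They were selected by gene family on the basis of their measured levels by cell class and library, so levels and ratios of these genes are given as a description, with no test.

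The data are single cell RNA sequencing of sorted mammary gland cells from adult female wild-type mice. The library labelled Ctrl came from control mice and the library labelled CL from mice given clodronate liposomes, vesicles carrying a drug that kills the phagocytes that ingest them. The sample labels give an age of 9 to 10 weeks and the protocol 8 to 10 weeks, the strain of these mice and the number pooled per library are not given in the sources used here, and each group is 1 library. The sort kept CD45+ immune cells and CD31-TER119- cells, and the proportion of these fractions in each library is not given. With 1 library per group no difference can be tested against variation between mice, and every interval below is a 95% interval of counting error alone.

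MHC class I molecules display peptides from inside the cell to CD8+ T cells, and they also bind inhibitory receptors of natural killer cells. The proteasome cuts proteins into peptides, the immunoproteasome form favours peptides that fit the class I groove, the TAP transporter carries them into the endoplasmic reticulum, and tapasin (Tapbp) bridges TAP to the heavy chain paired with B2m. The genes are present at some level in nearly all nucleated cells, are high in lymphocytes, and are a textbook target of interferon gamma, acting in part through Irf1 and the transactivator Nlrc5.

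All but B2m lie on chromosome 17 of GRCm38, within the mouse MHC (H2) region. On GENCODE positions the heavy chain genes were H2-K1 (chr17:33996017-34000347, minus strand), H2-D1 (chr17:35262730-35267499, plus strand), H2-Q4 (chr17:35379617-35385290, plus strand), H2-Q7 (chr17:35439155-35443773, plus strand) and H2-T23 (chr17:36029773-36032855, minus strand). The transporter and proteasome genes form one cluster, Psmb9 (chr17:34181987-34187764, minus strand), Tap1 (chr17:34187553-34197225, plus strand) and Psmb8 (chr17:34197721-34201454, plus strand), and Tapbp (chr17:33915899-33929292, plus strand) lies before both it and H2-K1 in chromosome coordinates. The light chain gene is B2m (chr2:122147686-122153083, plus strand). All 10 are protein-coding. H2-Q7 and H2-Q6, and to a lesser degree the other H2 genes, are near-identical copies, so how reads were divided between them is uncertain.

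Promoter sequence is shown as a description, and no link between it and the levels of these genes was tested. All 10 genes matched a RefSeq promoter window (GRCm38.p6) of 300 bases, from 250 before to 50 after the annotated start. The first motif pairs the core of the X2 box with the Y box, elements of the SXY module on which Nlrc5 acts in class I promoters. It was searched on both strands as TGACG and ATTGG with 20 bases between them, a spacing chosen after these promoters had been seen. It was present in 0.0944% of all 32851 windows and in H2-K1, H2-D1 and B2m among the 10 genes. Each stretch runs 5′ to 3′ on the strand of the gene, with both boxes in capitals.
H2-K1, chr17:34000359-34000388, minus strand: TGACGcgcagtcagctcttacccccATTGG
H2-D1, chr17:35262993-35263022, plus strand: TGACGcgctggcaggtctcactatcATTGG
B2m, chr2:122147609-122147638, plus strand: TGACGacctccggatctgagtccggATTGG
These stretches began 41 bases before the RefSeq start of H2-K1, 101 before that of H2-D1 and 78 before that of B2m. RefSeq starts can differ from the GENCODE positions above. The stretches shown for H2-D1, and below for H2-T23, Psmb8 and Psmb9, therefore lie inside the GENCODE spans of those genes.

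A kappa B type site, GGGANNNCCC on either strand, stood in 5.55% of windows and in 4 heavy chain genes, in H2-Q7 on the opposite strand only. It is part of the class I enhancer. An interferon-stimulated response element of the form GAAANNGAAA stood in 3.44% of windows, B2m and H2-T23 among them, in H2-T23 on the opposite strand. A gamma-activated site, an element of interferon gamma targets, was searched as TTCNNNGAA and stood in 8.30% of windows and in Psmb8 among the 10 genes. The motif is in capitals.
H2-K1, chr17:34000438-34000467, minus strand: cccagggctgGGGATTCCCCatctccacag
H2-D1, chr17:35262914-35262943, plus strand: cccagggctgGGGATTCCCCatctcctcag
H2-Q4, chr17:35379434-35379463, plus strand: atcaggggtgGGGATTTCCCatctccccag
H2-Q7, chr17:35439012-35439041, plus strand: gcccatggctGGGGATTCCCatctccccag
B2m, chr2:122147538-122147567, plus strand: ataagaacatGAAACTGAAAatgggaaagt
H2-T23, chr17:36032806-36032835, minus strand: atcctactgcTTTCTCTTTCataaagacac
Psmb8, chr17:34198088-34198117, plus strand: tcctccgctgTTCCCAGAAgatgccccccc
Tap1 and Psmb9 are divergent neighbours whose RefSeq starts lie 226 bases apart, so that 275 of the 300 bases of their windows are the same DNA. The TGACG core, present in 20.8% of windows on either strand, stood 86 bases before the start of Tap1 in that shared stretch, shown here on the plus strand with the core in capitals.
Tap1 and Psmb9, chr17:34187458-34187487, plus strand: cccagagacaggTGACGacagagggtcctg
A match is a description of the letters only, and a gene without a match has no such letters in this window.

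After filtering and removal of likely doublets, 5919 cells of the library labelled Ctrl and 8775 of the library labelled CL remained, with medians of 11318 and 10291 UMIs, the unique molecular identifiers that count captured transcripts. Clusters were named from marker genes, with the 10 genes and other interferon-induced genes left out of the clustering. The 8 classes with at least 20 cells in each library were compared, written "-like" because the names are rebuilt. Each of the 8 carried its own marker list above every other class, for example 19452 and 19576 CPM for the basal list in basal-like cells. The same lists named the clusters, so this is no independent check of the names. Endothelial-like cells were present although CD31 was used to gate them out, and Pecam1, which encodes CD31, was at 1051 and 1047 CPM in them. Macrophage-like cells numbered 40 and 42, or 0.676% and 0.479% of retained cells, while the summed macrophage markers over all retained cells were 72.7 and 97.8 CPM. Of the UMIs in that sum, 4576 of 6222 in Ctrl and 7484 of 11358 in CL were in macrophage-like cells, and 220 and 1915 in a myeloid cluster led by S100a9 and Lyz2 that held 18 and 211 cells. T and NK-like cells took 3.60% of retained cells in Ctrl and 8.38% in CL. The libraries shared 22 barcodes among their candidate cells, and without them no summed ratio moved beyond its counting interval.

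The summed level of the 10 genes, as UMIs per 1000000 UMIs of the class (CPM), was highest in T and NK-like cells, with 12146 CPM [11939, 12355] in Ctrl and 10913 CPM [10809, 11018] in CL. Endothelial-like cells came next with 7871 CPM [7546, 8207] and 10217 CPM [9918, 10522], then macrophage-like cells with 5779.9 CPM [5523, 6046] and 7097 CPM [6865, 7334]. Pericyte-like cells were lowest in both libraries, with 1319.7 CPM [1186, 1465] and 2188 CPM [2026, 2359]. The order at both ends was therefore the same in the libraries, and the middle of the order was not. In Ctrl it ran from hormone-responsive luminal-like cells (4192 CPM [4173, 4211]) through fibroblast-like (2737 CPM [2664, 2811]) and secretory-lineage luminal-like cells (2389 CPM [2371, 2407]) to basal-like cells (1827 CPM [1784, 1870.5]). In CL it ran from fibroblast-like (5878 CPM [5761, 5996]) through secretory-lineage (5630.1 CPM [5608, 5653]) and hormone-responsive (5034 CPM [5014, 5054]) to basal-like cells (4081 CPM [4009, 4154]). No neighbouring intervals overlapped in either order.

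**Figure D1:**
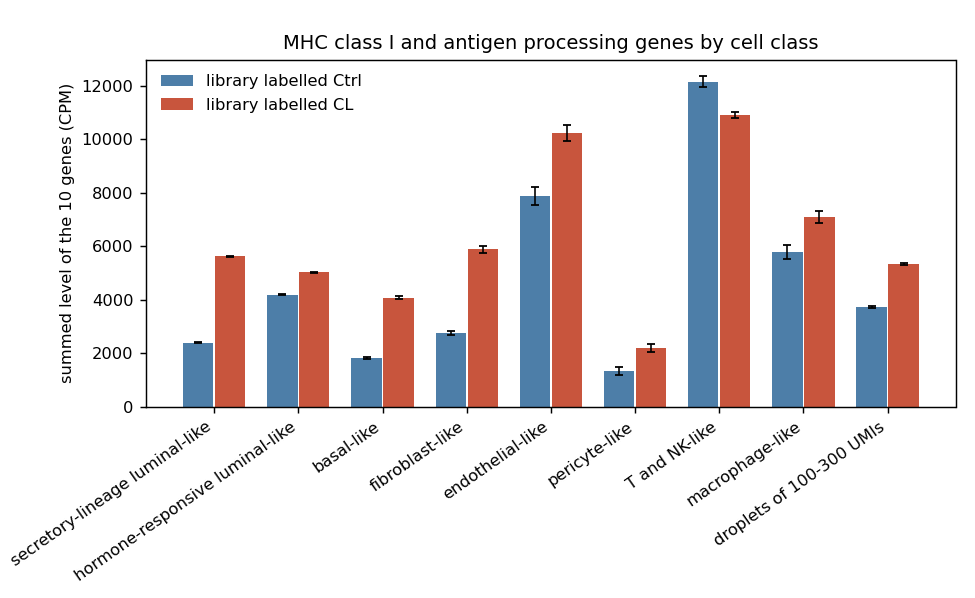
Summed level of the 10 genes in CPM (linear axis from 0) in 8 cell classes and in droplets of 100 to 300 UMIs, for the library labelled Ctrl (blue) and CL (red), with exact Poisson intervals of 95% as error bars. Secretory-lineage, basal-like and fibroblast-like cells have bars over 2 times as high in CL, and T and NK-like cells have the highest bar in both libraries and are lower in CL.

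Secretory-lineage luminal-like cells, the milk-producing lineage marked by Csn3, Wfdc18 and Aldh1a3, had the largest summed ratio of the 8 classes under the main settings. Their summed level was 2.36-fold higher in CL, a log2 ratio of 1.24 [1.22, 1.25] over 2615 and 3899 cells. Of the 9 genes that reached 50 CPM and 50 UMIs in the higher library, 8 were at least 2-fold higher, beside 1.1% of all genes at that minimum, and the remaining one, H2-D1, was 1.79-fold higher. Among the processing genes the immunoproteasome and the Tap1 transporter had the largest ratios. Psmb9 had 13.2 CPM in Ctrl and 73.8 CPM in CL (log2 ratio 2.49 [2.34, 2.64]), Psmb8 had 69.1 and 254 CPM (1.88 [1.81, 1.95]) and Tap1 had 17.01 and 71.3 CPM (2.07 [1.93, 2.21]). Among heavy chains the spread was wide. H2-Q7, a nonclassical class I gene of the Qa-2 group, had 35.5 and 189 CPM (2.41 [2.32, 2.51]), whereas the classical H2-K1 had 991 and 2293 CPM (1.21 [1.19, 1.23]) and the classical H2-D1 had 769 and 1374 CPM (0.84 [0.82, 0.86]). H2-T23, which encodes Qa-1, a ligand of the NK receptor NKG2A, had 149.7 and 368 CPM (1.30 [1.25, 1.34]). The light chain B2m had 213 and 668 CPM (1.65 [1.61, 1.69]) and Tapbp had 111 and 300.1 CPM (1.44 [1.38, 1.49]). H2-Q4 was under the minimum level, with 21.1 and 40.1 CPM (0.93 [0.80, 1.06]). The intervals of all 10 genes lay above 0, and the share of all tested genes with such an interval is not given here. Median depth was 9655 and 9135 UMIs per cell.

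Basal-like cells, the contractile outer layer marked by Krt14 and Acta2, started from the second lowest level and had a ratio of similar size, 2.23-fold or a log2 ratio of 1.16 [1.12, 1.20] over 407 and 443 cells. Of the 8 genes with the minimum level, 7 were at least 2-fold higher, beside 1.16% of all genes tested. Tap1 had 19.3 CPM in Ctrl and 87.6 CPM in CL (2.18 [1.80, 2.58]) and Psmb8 had 37.9 and 162 CPM (2.1 [1.83, 2.38]). B2m had 258 and 659 CPM (1.35 [1.24, 1.47]), H2-K1 had 731 and 1582 CPM (1.11 [1.05, 1.18]) and H2-T23 had 105 and 239 CPM (1.20 [1.02, 1.38]). H2-D1 was again the gene under 2-fold, with 521 and 994 CPM (0.93 [0.85, 1.01]). Psmb9 reached the 50 CPM minimum in neither library, with 45 UMIs in Ctrl and 125 in CL (1.81 [1.31, 2.34]). Basal-like cells of CL were shallower, with medians of 8027 and 5840 UMIs, and held more of the secretory marker list, 2494 and 3314 CPM, and less of the division list, 168 and 40.1 CPM. The part of these differences in the result was not tested.

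Fibroblast-like cells, the collagen-producing stroma, had a 2.15-fold higher sum in CL (1.10 [1.05, 1.15]) over 254 and 269 cells, and 7 of the 9 genes with the minimum level were at least 2-fold higher beside 1.63% of all genes tested. Psmb9 had 12.8 CPM in Ctrl and 55.3 CPM in CL (2.11 [1.46, 2.82]), resting on 25 UMIs in Ctrl and 91 in CL. H2-Q7 had 42.4 and 136 CPM (1.68 [1.31, 2.06]), Tap1 had 31.7 and 82.02 CPM (1.37 [0.93, 1.83]) and H2-K1 had 679 and 1721 CPM (1.34 [1.25, 1.44]). B2m, at 853 and 1622 CPM (0.93 [0.84, 1.02]), was higher there than in any epithelial class, and with H2-D1 (0.94 [0.85, 1.04]) it stayed under 2-fold. T and NK markers summed to 6.64 and 37.7 CPM in these cells, and their part in the result was not tested.

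Hormone-responsive luminal-like cells, which carry the estrogen, progesterone and prolactin receptors, differed from the other epithelial classes. They had the highest summed level of the epithelium in Ctrl, 1.75 [1.74, 1.77] times that of secretory-lineage cells and 2.29 [2.24, 2.35] times that of basal-like cells. In CL their level was 0.894 [0.889, 0.899] times that of secretory-lineage cells, so the order of the luminal classes by the sum turned around between the libraries. By gene, 5 of the 10 were still higher in hormone-responsive cells in CL, H2-D1, H2-Q4, H2-Q7, Psmb8 and Psmb9, from 1.03 times for H2-D1 to 1.56 times for Psmb9, with all 5 intervals above 1. Within the class the sum was 1.20-fold higher in CL (0.26 [0.26, 0.27]) over 2160 and 2605 cells. Of the 8 genes with the minimum level, 1 was at least 2-fold higher, beside 0.315% of all genes tested, and that was H2-Q7 at 99.6 CPM in Ctrl and 205 CPM in CL (1.04 [0.99, 1.09]). The other heavy chains lay between 0.09 for H2-T23 and 0.36 for H2-K1. The immunoproteasome was already high in Ctrl and close to that level in CL, with 292 and 303 CPM for Psmb8 (0.06 [0.02, 0.09]) and 104 and 115 CPM for Psmb9 (0.14 [0.09, 0.20]). In Ctrl, Psmb9 was 7.93 [7.15, 8.81] times and Psmb8 4.22 [4.03, 4.42] times as high in hormone-responsive as in secretory-lineage cells. B2m had 441 and 472 CPM (0.10 [0.07, 0.12]) and Tap1 33.5 and 35.9 CPM (0.10 [0.00, 0.20]). The largest cluster of this class differed between the libraries, cluster 2 (led by Gpx3 and Aoc1) with 898 Ctrl and 78 CL cells and cluster 5 (led by Fgb and Upk3a) with 207 and 1105. Without both clusters the log2 ratio was 0.36.

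T and NK-like cells, which had the highest summed level, were the class in which the sum was lower in CL, with a log2 ratio of -0.15 [-0.18, -0.13] over 213 and 735 cells. The clusters made up different parts of this class in each library. Cluster 22 (led by Gzma and Rgs1) held 61 Ctrl and 73 CL cells, with a log2 ratio of -0.05 [-0.11, 0.01]. Clusters 16 and 18 held 75 and 77 Ctrl cells and 265 and 397 CL cells, with log2 ratios of -0.20 and -0.12. None of the 10 genes was 2-fold higher or lower, beside 0.288% of tested genes at least 2-fold higher and 0.895% at least 2-fold lower. Beyond counting error 3 genes were lower, H2-D1 with 3388 CPM in Ctrl and 2741 CPM in CL (-0.31 [-0.36, -0.25]), H2-K1 with 4259 and 3903 CPM (-0.13 [-0.17, -0.08]) and B2m with 2305 and 2150.2 CPM (-0.10 [-0.17, -0.04]). The other 7 genes had intervals that included 0. The share of all tested genes beyond counting error in this class is not given here. H2-Q7 was at 1268 and 1221 CPM, well above its level in the epithelial classes. Psmb8 was at 238 and 244 CPM, below its level in hormone-responsive luminal-like cells in both libraries.

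Endothelial-like cells were few, 54 and 59. Their sum was 1.30-fold higher in CL (0.38 [0.30, 0.45]), and the processing genes differed more than the heavy chains. Tap1 (1.00 [0.21, 1.86]), Tapbp (1.11 [0.67, 1.57]), Psmb8 (1.12 [0.67, 1.58]) and Psmb9 (1.01 [0.34, 1.72]) were the 4 of 10 genes at least 2-fold higher, beside 4.35% of tested genes, while the summed heavy chains had 0.28 [0.20, 0.37]. All 4 sat close to the 2-fold line, from 1.00 to 1.12 on the log2 scale. With doublets kept the count was 0, and the share of all genes under that setting is not given here. The summed log2 ratio was 0.19 with doublets kept and 0.15 with at most 5% mitochondrial UMIs. The class joined cluster 12 (led by Fabp4 and Selp), with 35 Ctrl and 49 CL cells, and cluster 17 (led by Nts and Fabp4), with 19 and 10. The summed log2 ratio was 0.57 [0.48, 0.67] in cluster 12 and -0.11 [-0.26, 0.05] in cluster 17, which was under 20 cells in both libraries.

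Macrophage-like cells, 40 and 42 in number and named by C1qa, C1qb and C1qc, had a summed log2 ratio of 0.30 [0.22, 0.38]. Of the 7 genes with the minimum level 1, Psmb8, was at least 2-fold higher, beside 5.1% of tested genes. The processing genes and the heavy chains differed here too. The summed immunoproteasome had 131 CPM in Ctrl and 328 CPM in CL (1.33 [0.83, 1.85]) and peptide loading had 179 and 376 CPM (1.07 [0.64, 1.52]), whereas the heavy chains had 3777 and 4390.1 CPM (0.22 [0.12, 0.32]). Tap1 rested on 7 UMIs in Ctrl and 44 in CL. Basal markers in this class were 656 and 39.98 CPM and secretory markers 583 and 1653 CPM, and their part in the result was not tested.

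Pericyte-like cells, 37 and 44, had a summed log2 ratio of 0.73 [0.54, 0.92] on 354 UMIs in Ctrl and 675 in CL. None of the 3 genes with the minimum level was 2-fold higher, beside 1.45% of tested genes. That count was 4 with doublets kept and 1 with 10% free RNA subtracted, and the share of all genes under those settings is not given here. The summed log2 ratio was 0.35 with CPM averaged over single cells and 1.26 with doublets kept. H2-K1 had 369 and 661 CPM (0.84 [0.49, 1.20]), and Psmb8 rested on 3 UMIs in Ctrl and 34 in CL, a log2 ratio of 3.30 [1.63, 5.65].

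A cluster led by S100a9, Lyz2 and S100a8 held 18 and 211 cells, too few in Ctrl for a comparison beyond its values. Its sum was 6782 and 6454 CPM (-0.07 [-0.19, 0.05]). Its heavy chains were at 4917 and 3425 CPM and its immunoproteasome at 84.8 and 619 CPM, the latter on 8 UMIs in Ctrl and 1024 in CL.

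**Figure D2:**
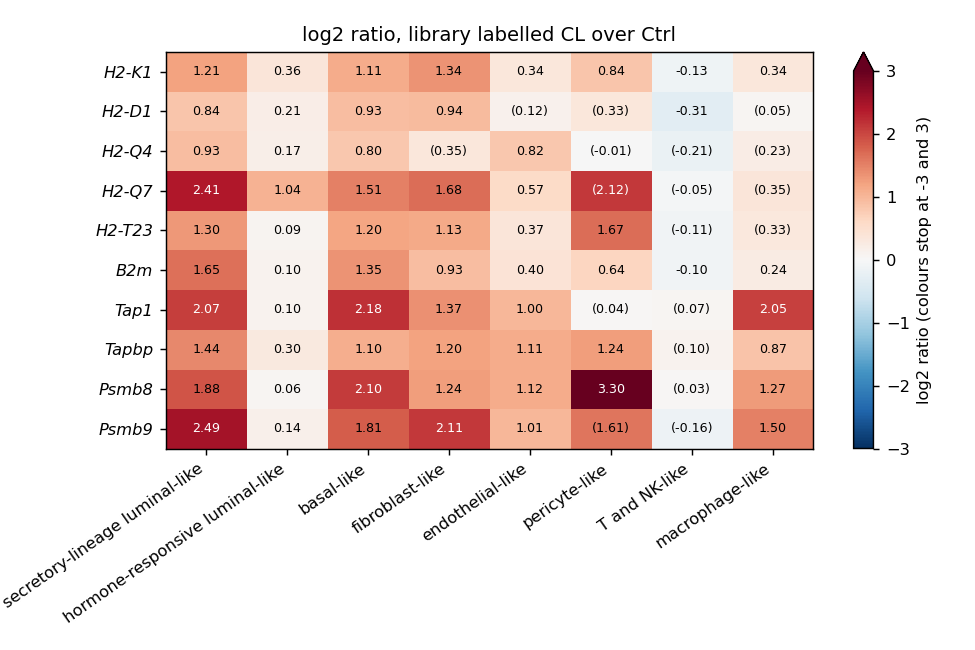
Log2 ratio of CPM in the library labelled CL over Ctrl for each of the 10 genes (rows) in 8 cell classes (columns), with red for higher in CL and blue for lower, and values in parentheses where the 95% counting interval includes 0. All 10 genes are positive in secretory-lineage and basal-like cells, only H2-Q7 passes 1 in hormone-responsive cells, and the T and NK column lies between -0.31 and 0.10.

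Over the 8 classes, the median log2 ratio of the 10 genes was 1.54 in secretory-lineage, 1.27 in basal-like and 1.22 in fibroblast-like cells. The median of all genes tested in those classes was 0.01, -0.05 and -0.01. In hormone-responsive cells the 10 genes had a median of 0.16 beside -0.02 for all genes. No single gene carried the sums. With each gene left out in turn, the secretory-lineage ratio ran from 1.19 to 1.39, the latter without H2-D1, and the T and NK ratio from -0.17 to -0.10.

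Droplets of 100 to 300 UMIs, which hold mostly free RNA from broken cells, contained these transcripts too, 3729.8 CPM [3694, 3766] in Ctrl and 5332 CPM [5289, 5375] in CL, a log2 ratio of 0.52 [0.50, 0.53]. This bears on the classes with low levels, because free RNA enters every cell droplet. The summed level was higher in CL by 3241 CPM in secretory-lineage, 3141 in fibroblast-like and 2254 in basal-like cells, more than the 1602 CPM by which it was higher in droplets. In hormone-responsive cells it was higher by 842 CPM, in pericyte-like cells by 868 and in macrophage-like cells by 1317, all less than in droplets, and in endothelial-like cells by 2345. In secretory-lineage, basal-like and fibroblast-like cells, 9 of the 10 genes had a larger CPM difference than in droplets, and H2-Q7 was the exception in all 3. These counts, and those of the other classes below, take no account of counting error. The share of all genes with a larger difference than in droplets is not given here, so the counts have no base rate. Tapbp in basal-like cells passed by a narrow margin, 121.7 against 120.1 CPM. H2-Q4 in fibroblast-like cells passed at 10.0 against 5.7 CPM, and its ratio between the libraries was within counting error. H2-Q7 had 132 and 319.5 CPM in droplets, whereas basal-like cells had 19.9 and 56.5 CPM of it. In hormone-responsive cells none of the 10 had a larger difference than in droplets, against 3 in pericyte-like, 6 in macrophage-like and 8 in endothelial-like cells. Psmb9 and Tap1 in droplets had 91.4 and 104 CPM and 21.1 and 36.6 CPM. With 10% of each class's UMIs subtracted as free RNA of the same library, the log2 ratio was 1.34 in secretory-lineage, 1.29 in basal-like and 0.24 in hormone-responsive cells.

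The higher level in secretory-lineage cells was spread over most of the class. The median over cells, as UMIs of the 10 genes per 10000 UMIs of the cell, was 21.8 in Ctrl and 47.3 in CL, and the 10th to 90th percentiles ran from 13.1 to 36.8 and from 23.5 to 105. Of the CL cells, 92.05% lay above the Ctrl median and 66.4% [64.9, 67.9] above the Ctrl 90th percentile, where the bracket gives an exact binomial interval. Basal-like cells had medians of 15.96 in Ctrl and 30.7 in CL, with 80.6% of CL cells above the Ctrl median and 46.95% [42.2, 51.7] above its 90th percentile. Their spread was wider in CL, 12.3 to 83.4 against 8.84 to 32.4, and the 10% of cells with the most carried 31.8% of the class's UMIs of these genes against 22% in Ctrl. Without those cells the basal-like log2 ratio was 1.03 [0.98, 1.08]. Fibroblast-like cells had medians of 24.3 in Ctrl and 54.2 in CL, with 56.1% [49.98, 62.2] of CL cells above the Ctrl 90th percentile. Hormone-responsive cells overlapped far more, with medians of 40.4 in Ctrl and 48.03 in CL and 18.8% [17.4, 20.4] of CL cells above that line. T and NK-like cells had medians of 118 in Ctrl and 109 in CL, and 39.5% of CL cells lay above the Ctrl median.

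**Figure D3:**
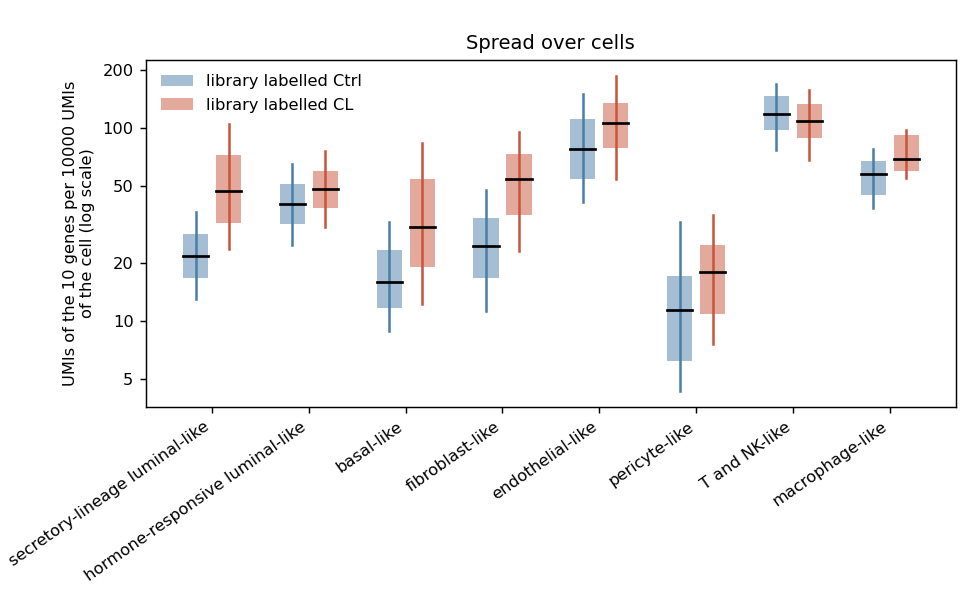
UMIs of the 10 genes per 10000 UMIs of the cell (log axis) in 8 classes and 2 libraries, with the median as a black line, the 25th to 75th percentiles as a box and the 10th to 90th as a vertical line. In secretory-lineage cells the CL box starts above the Ctrl box, whereas in hormone-responsive and T and NK-like cells the boxes overlap.

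To compare cells at one depth, each was thinned to 2000 UMIs, which left out 61 Ctrl and 81 CL secretory-lineage cells with fewer. A Psmb9 UMI was then found in 2.35% [1.80, 3.01] of Ctrl cells and 11.9% [10.9, 12.9] of CL cells (12.8% and 38.9% before thinning), and a Tap1 UMI in 2.82% [2.21, 3.54] of Ctrl cells and 11.2% [10.2, 12.2] of CL cells (14.7% and 38.7%). B2m was found in 34.3% [32.4, 36.1] of Ctrl cells and 64.7% [63.1, 66.2] of CL cells. In basal-like cells the Tap1 share was 4.02% [2.32, 6.45] of Ctrl cells and 14.3% [11, 18.1] of CL cells. In hormone-responsive cells the Psmb9 share was 17.8% [16.2, 19.5] of Ctrl cells and 18.4% [16.9, 19.98] of CL cells. No class that should lack these genes was present to set a background share, and the droplet levels above stand in its place.

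The pattern held at the level of single clusters. There were 20 clusters with at least 20 cells in each library. The sum was higher in CL beyond counting error in 17 of them, lower in 2 and within counting error in 1, and these last 3 were the T and NK-like clusters, with log2 ratios from -0.20 to -0.05. The 5 secretory-lineage clusters ran from 0.98 to 1.32, with all 10 genes higher in each. The lowest was the Lalba-expressing cluster 7, at 2445 and 4812 CPM, and the other 4 lay at or above 1.17. The 5 hormone-responsive clusters ran from 0.18 to 0.37, all below every secretory-lineage cluster. The 2 fibroblast-like clusters had 1.22 (cluster 8, led by collagen genes) and 0.53 (cluster 15, led by Il6). The cluster left unnamed, which held markers of both luminal lineages at a high depth, had 0.55, above all 5 hormone-responsive and below all 5 secretory-lineage clusters.

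The classes' shares of these transcripts differed between the libraries, and more than their shares of all UMIs in the luminal classes. Hormone-responsive cells held 62.2% in Ctrl and 38.9% in CL of all UMIs of the 10 genes in retained cells, beside 52.04% and 42.2% of all UMIs. Secretory-lineage cells held 23.8% in Ctrl and 38.4% in CL, beside 34.96% and 37.3% of all UMIs. T and NK-like cells held 4.39% in Ctrl and 6.60% in CL, beside 1.27% and 3.31% of all UMIs. Both kinds of share also follow the number of cells of each class that were sorted.

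The other genes of the pathway were read from fixed lists. The 3 other interferon-inducible proteasome genes were the subunit Psmb10 and the activator subunits Psme1 and Psme2. All 3 were at least 2-fold higher in secretory-lineage cells, where Psmb10 had 22.7 CPM in Ctrl and 79.7 CPM in CL (1.81 [1.69, 1.93]), and 2 of 3 in basal-like and fibroblast-like cells (Psmb10 and Psme1). None of the 3 was in hormone-responsive cells, where Psmb10 had 58.6 and 74.8 CPM (0.35 [0.28, 0.42]). In macrophage-like cells all 3 were at least 2-fold higher, although only 1 of the 7 members with the minimum level was. In endothelial-like cells 1 of 3 was (Psmb10) and in T and NK-like cells none, and in pericyte-like cells none reached the minimum level. Of the 14 constitutive proteasome genes none was 2-fold higher in any epithelial class, and their median log2 ratio was 0.21 in secretory-lineage, 0.06 in basal-like and -0.07 in hormone-responsive cells.

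Each inducible subunit replaces one constitutive catalytic subunit, Psmb8 for Psmb5, Psmb9 for Psmb6 and Psmb10 for Psmb7. UMIs from the 3′ end count molecules with no correction for length, and capture can differ between genes, so the shares are compared across classes and not between pairs. Psmb8 made up 31.5% [30.4, 32.7] in Ctrl and 60.9% [60.2, 61.6] in CL of the UMIs of its pair in secretory-lineage cells. In basal-like cells the share was 20.4% [17.5, 23.6] in Ctrl and 55.9% [52.6, 59.3] in CL. Hormone-responsive cells had 50.5% [49.9, 51.1] in Ctrl and 55.97% [55.4, 56.6] in CL, so the 3 epithelial classes spanned 20.4% to 50.5% in Ctrl and 55.9% to 60.9% in CL. The Psmb9 share was 4.79% and 19.7% in secretory-lineage, 4.87% and 14.1% in basal-like and 24.9% and 27.1% in hormone-responsive cells of Ctrl and CL. The Psmb10 share was 15.7% and 37.3%, 16.9% and 40.8% and 28.9% and 36.2% in the same order. In Ctrl, Psmb8 was at 0.294 times its droplet level in secretory-lineage and 0.161 times in basal-like cells. For Psmb9 these values were 0.144 and 0.130. The part of free RNA in these shares was not tested. In T and NK-like cells all 3 shares had overlapping intervals between the libraries, for example 66.7% [61.7, 71.3] in Ctrl and 63.6% [61.1, 66.1] in CL for Psmb8.

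**Figure D4:**
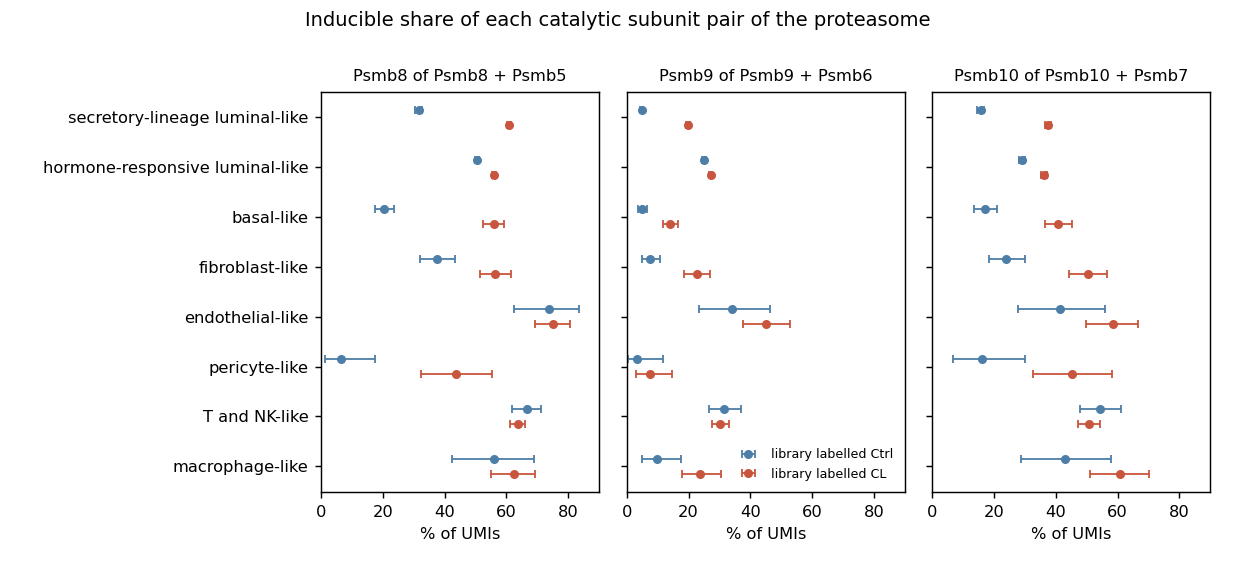
Share of UMIs from the inducible gene in each pair of catalytic proteasome subunits (percent of the UMIs of both genes, with exact binomial 95% intervals) in 8 cell classes, for the library labelled Ctrl (blue) and CL (red). The Psmb8 share of secretory-lineage cells moves from 31.5% to 60.9%, and the points of T and NK-like cells nearly coincide.

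Among the 7 other genes of peptide supply and loading, Tap2, the partner of Tap1 in the transporter, was the one past 2-fold in an epithelial class. It had 54.3 CPM in Ctrl and 118 CPM in CL (1.12 [1.04, 1.20]) in secretory-lineage cells. In hormone-responsive cells Tap2 was lower in CL, 262 and 182 CPM (-0.52 [-0.56, -0.48]), against 0.10 [0.00, 0.20] for its partner Tap1. The chaperones Calr and Pdia3, which serve glycoproteins in general, had 0.23 and 0.28 in secretory-lineage cells. Of the 11 other class I and class I-like genes, 10 were in the files and 2 reached the minimum level in secretory-lineage cells. These were H2-Q6 at 23.1 and 93.01 CPM (2.01 [1.89, 2.13]) and H2-T22 at 27.3 and 70.1 CPM (1.36 [1.25, 1.47]), both past 2-fold. In basal-like cells none reached it.

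Among the regulators, Irf1, an interferon-induced transcription factor, had log2 ratios of 0.71 [0.60, 0.81] in secretory-lineage, 0.64 [0.47, 0.81] in basal-like and -0.15 [-0.22, -0.08] in hormone-responsive cells. Nlrc5 was at low counts, 52 UMIs in Ctrl and 417 in CL in secretory-lineage cells (2.47 [2.05, 2.92]) and 137 UMIs in Ctrl and 220 in CL in hormone-responsive cells (0.54 [0.23, 0.86]). Of the interferon receptors and ligand, 7 genes of which 1 to 6 reached the minimum level in a class, none at that level was past 2-fold in any of the 8 classes. Ifng, which encodes interferon gamma, was found mainly in T and NK-like cells, at 188 CPM in Ctrl and 156 CPM in CL (-0.27 [-0.50, -0.03]) within that class. Over all retained cells Ifng was higher in CL, at 2.49 CPM in Ctrl and 5.32 CPM in CL on 213 and 618 UMIs, of which 204 and 600 were in T and NK-like cells, themselves a larger share of CL. It was also higher in droplets, at 1.09 CPM in Ctrl and 5.59 CPM in CL.

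MHC class II genes, which present peptides to CD4+ T cells, were compared as a neighbouring system. In secretory-lineage cells 4 of the 4 with the minimum level (H2-Aa, H2-Ab1, H2-Eb1 and Cd74) were at least 2-fold higher, from 12.6 to 246 CPM for the invariant chain Cd74 (4.29 [4.14, 4.44]). Basal-like cells had the same 4, with Cd74 at 42.6 and 448 CPM (3.39 [3.16, 3.64]). In hormone-responsive cells no class II gene reached the minimum, and in macrophage-like cells Cd74 was at 37885 and 32732 CPM (-0.21 [-0.24, -0.18]). In T and NK-like cells Cd74 was the 1 class II gene with the minimum level, on 21 UMIs in Ctrl and 223 in CL, and was past 2-fold at 19.4 CPM in Ctrl and 58.03 CPM in CL (1.58 [0.94, 2.30]).

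Over 17 points, the 8 classes in each library and the S100a9 and Lyz2 cluster of CL, the genes whose log2 level was most like that of the sum were H2-Q6 (Pearson r = 0.95), H2-T22 (0.90), Casp8 (0.87), Neurl3 (0.85) and Traf1 (0.84) among 9225 genes ranked. The first shares near-identical sequence with a member, and the points share libraries and free RNA, so these values are a description. Among the 45 pairs of the 10 genes r ran from 0.25 (H2-Q4 and Tapbp) to 0.97 (H2-D1 and H2-Q7), with a median of 0.70.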

How the data were processed

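The authors deposited raw UMI counts per gene and barcode as unfiltered matrices (32285 genes, 6794880 barcodes in each). The file headers name Cell Ranger 4, while the submitters' processing notes list Cell Ranger 2.1.1 and mm10. The annotation behind the counts is not given in the sources used here. The deposited barcode lists (7217 in Ctrl, 10555 in CL) did not index the matrix columns, so that many barcodes with most UMIs were taken as candidate cells (82.7% and 85.7% of 118743318 and 155765480 UMIs). Barcodes under 500 genes or over 15% mitochondrial UMIs were dropped, and the 6% with the highest Scrublet score in each library were removed as likely doublets, since the automatic threshold marked 360 cells in Ctrl and 0 in CL. Both libraries were clustered together in scanpy 1.11.5 (2000 variable genes, 30 components, 15 neighbours, Leiden resolution 1) and clusters were named from marker lists. Of 25 clusters 1 stayed unnamed and 1, led by S100a9 and Lyz2, is called by its leading genes. UMIs were summed by class and library and scaled to the class total (CPM). Level intervals are exact Poisson, ratio intervals exact conditional binomial and share intervals Clopper-Pearson, at 95%, and cover counting error only. Genes that reached 50 CPM and 50 UMIs in whichever library was higher were tested, and a ratio of 2-fold or more was called. Ratio intervals were checked on simulated Poisson counts, the model they assume. The simulation held no variation between cells, mice or libraries, so it checks the calculation only. The 10 genes, the gene lists and the marker lists were chosen with earlier results of these data known. Named beyond the 10 genes are those of fixed lists past 2-fold in an epithelial class, with the counterparts, partners and regulators described beside them, and the 5 genes most like the sum (log2 of CPM + 1, at least 20 CPM in 1 point). The alternatives were 1000 genes per cell, 5% mitochondrial UMIs, doublets kept, Leiden resolution 0.5 and 2, clustering with all genes, each cell named alone, mean CPM per cell, a denominator without the 50 most abundant genes, 10% free RNA subtracted, thinning to 1000 UMIs and a 200 CPM minimum. Leaving out shared barcodes, and clusters mostly in 1 library, was added after seeing the data. Gene positions are from GENCODE M21 on GRCm38, in which all 10 genes were found. 1 gene of the regulator list is not reported here.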

Additional observations from a re-analysis of the deposited data

Results flagged for a closer look

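The summed level of the 10 genes in T and NK-like cells had a log2 ratio of -0.15 in the library labelled CL over Ctrl, lower in CL, while in the other 7 classes it was higher beyond counting error, from 0.26 in hormone-responsive to 1.24 in secretory-lineage luminal-like cells. It was noted because the direction is opposite to that of every other class compared. With 1 library per group the difference between the classes was not tested.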

How the results depend on the processing

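No result changed direction under any alternative run. The summed log2 ratio ran over them from 1.21 to 1.34 in secretory-lineage, 1.07 to 1.29 in basal-like, 1.01 to 1.18 in fibroblast-like, 0.24 to 0.36 in hormone-responsive, 0.15 to 0.38 in endothelial-like, 0.35 to 1.26 in pericyte-like, 0.25 to 0.40 in macrophage-like and -0.18 to -0.11 in T and NK-like cells. Values that left their counting interval were as follows. With 10% free RNA subtracted the ratio was 1.34 (secretory-lineage), 0.24 (hormone-responsive), 1.29 (basal-like) and 1.18 (fibroblast-like), and 1 pericyte-like gene passed 2-fold. With each cell named alone it was 1.21 in secretory-lineage cells, and the counts past 2-fold were 2 in endothelial-like and 3 in macrophage-like cells. With 5% mitochondrial UMIs it was 0.28 (hormone-responsive), 1.23 (basal-like) and 0.15 (endothelial-like, count 1). With CPM averaged over single cells it was 0.25 (hormone-responsive), 1.07 (basal-like), 1.01 (fibroblast-like), 0.35 (pericyte-like) and 0.40 (macrophage-like), with an endothelial-like count of 1. In hormone-responsive cells it was 0.25 at Leiden resolution 0.5, 0.25 with all genes clustered, 0.29 without the 50 most abundant genes and 0.36 without the clusters mostly in 1 library. With doublets kept it was 0.19 (endothelial-like, count 0), 1.26 (pericyte-like, count 4) and -0.11 (T and NK-like). With 1000 genes per cell it was 0.28 in endothelial-like cells, count 2. With a 200 CPM minimum the counts were 5 (secretory-lineage), 4 (basal-like), 3 (fibroblast-like) and 2 (endothelial-like), since fewer genes reach it. For every count in this paragraph, the share of all genes past 2-fold under the same setting is not given here. The cause of the other moves was not tested. Of the single genes' ratios under these settings, 704 stayed within their counting interval and 107 left it. Settings that merged a class or left it under 20 cells gave no value. Pericyte-like, macrophage-like and endothelial-like cells were few, from 37 to 59 per library, and single genes there rest on few UMIs. No paired analysis was possible because each group is 1 library.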
